A study of Mus musculus with 6 samples.

Results

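The 9 genes described here encode calcineurin subunits (Ppp3ca, Ppp3cb and Ppp3r1), calcineurin inhibitors (Rcan1 and Rcan2) and the transcription factors that calcineurin activates (Nfatc1, Nfatc2, Nfatc3 and Nfatc4). They were chosen by gene symbol among the 35976 genes quantified, with earlier results of these data known. All 9 passed the filter on low counts. None of them was called different between NF-YAcKO and NF-YAfl/fl satellite cells by edgeR's quasi-likelihood test. Rcan1 was lower and Rcan2 higher in every NF-YAcKO library than in every NF-YAfl/fl library. Ppp3ca and Nfatc2 also separated the genotypes, both lower in NF-YAcKO, and 55.3% of all genes tested separated them in either direction. Within Ppp3ca, 1 of its transcripts was called lower in NF-YAcKO cells.

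Calcineurin is a phosphatase that calcium and calmodulin switch on. It is built of a catalytic A subunit, encoded by Ppp3ca, Ppp3cb or Ppp3cc, and a calcium-binding regulatory B subunit, encoded in most tissues by Ppp3r1. It removes phosphates from the cytoplasmic NFATc proteins, which then enter the nucleus and bind DNA at sites with the core GGAAA, until kinases such as GSK3, CK1 and DYRK phosphorylate them again and they are exported. The Rcan proteins bind calcineurin and restrain it, and a downstream start of Rcan1, at its exon 4, is a known NFAT target. In skeletal muscle the pathway is known for roles in myoblast differentiation, myotube growth and the slow fibre programme.

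The libraries were RNA-seq of satellite cells, the Pax7-expressing stem cells of skeletal muscle, from NF-YAcKO and NF-YAfl/fl mice, 3 libraries of each. Nothing in the labels or methods says that each library is a mouse of its own, so p-values measure only the spread between these libraries, which may be technical. NF-YA is the regulatory subunit of NF-Y, a trimer that binds CCAAT boxes in promoters. Both genotypes carry floxed Nfya and were given tamoxifen (20 mg/ml), at an age of 5 to 7 weeks in the labels and 6 to 8 weeks in the methods. In NF-YAcKO mice, a tamoxifen-activated Cre expressed from Pax7 deletes the floxed segment, so the deletion is limited to cells that express Pax7, whereas NF-YAfl/fl controls have no Cre. Cells were enriched by magnetic depletion of CD31, CD45, CD11b and Sca1 positive cells and collected after 4 days in growth medium.

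Total expected counts were between 26936230 and 41118984 per library, so that 3 counts corresponded to a level between 0.0730 and 0.111 CPM. Nfya itself was at 27.0, 28.5 and 27.0 CPM in NF-YAcKO and at 23.4, 25.7 and 36.9 CPM in NF-YAfl/fl replicates 1 to 3. CPM are counts scaled to a common library size, which edgeR's TMM factors adjusted for all but this floor. An entry for the deleted transcript, added to the reference, took 22.3%, 26.4% and 34.2% of the Nfya counts in NF-YAcKO and 0.0% in each NF-YAfl/fl library, so reads of intact Nfya were still assigned in every NF-YAcKO library. Xist was at 836 to 852 CPM in NF-YAcKO and 0.306 to 0.475 CPM in NF-YAfl/fl, and the Y-linked Ddx3y was at 80.9 to 88.6 CPM in NF-YAfl/fl with at most 3 counts in NF-YAcKO, whereas the methods state male mice for the tamoxifen injections. In every comparison below the genotype cannot be told apart from sex, and none of the 9 genes is on a sex chromosome.

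Among markers of the labelled cell type, Pax7 was at 145 to 201 CPM in NF-YAcKO and 73.5 to 105 CPM in NF-YAfl/fl, while Calcr, a marker of quiescent satellite cells, had at most 0.0705 CPM in any library. Of 11 satellite cell markers tested, 0 were called higher and 2 lower in NF-YAcKO, with summed levels of 1629 to 1778 CPM against 1599 to 3120 CPM. All 18 differentiated muscle markers tested were lower in NF-YAcKO (summed 1011 to 1959 CPM against 50718 to 61851 CPM), and all 13 macrophage markers were higher (148 to 295 CPM against 6.17 to 13.2 CPM). In the other lists, 1 of 9 fibro-adipogenic, 1 of 6 endothelial and 4 of 8 Schwann markers were higher and 2 of 9 pericyte and smooth muscle markers were lower. The summed levels of these lists ran, in that order, from 1937 to 2339, 13.9 to 18.6, 88.8 to 103 and 1291 to 1612 CPM in NF-YAcKO, and from 1079 to 2843, 4.48 to 8.83, 48.9 to 85.5 and 2036 to 2758 CPM in NF-YAfl/fl. The part of these cell types in the results below was not tested, and in bulk RNA fewer cells of a type and less RNA per cell cannot be told apart.

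A gene was called when its Benjamini-Hochberg FDR in edgeR's quasi-likelihood test was under 0.01 and its log2 fold change was past 1 in either direction. By this rule 12.3% of the 17348 genes tested were called, 4.65% as higher and 7.67% as lower in NF-YAcKO, against 0 of the 9 genes of the pathway core. At an unadjusted p under 0.05, edgeR found 4 of the 9 and DESeq2 5, against 48.7% of all genes by edgeR. DESeq2 called 1, Rcan2 (16.1% of all genes). Only Rcan1 had an edgeR FDR under 0.01 whatever its fold, as 20.3% of all genes had. Of the log2 fold changes, 8 were below 0 and 1 above, with a median of -0.15 against -0.02 over all genes tested. The 2 genotypes did not overlap in CPM for 4 of the 9 genes (Ppp3ca, Rcan1, Rcan2 and Nfatc2), compared with 55.3% of all genes.

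**Figure D1:**
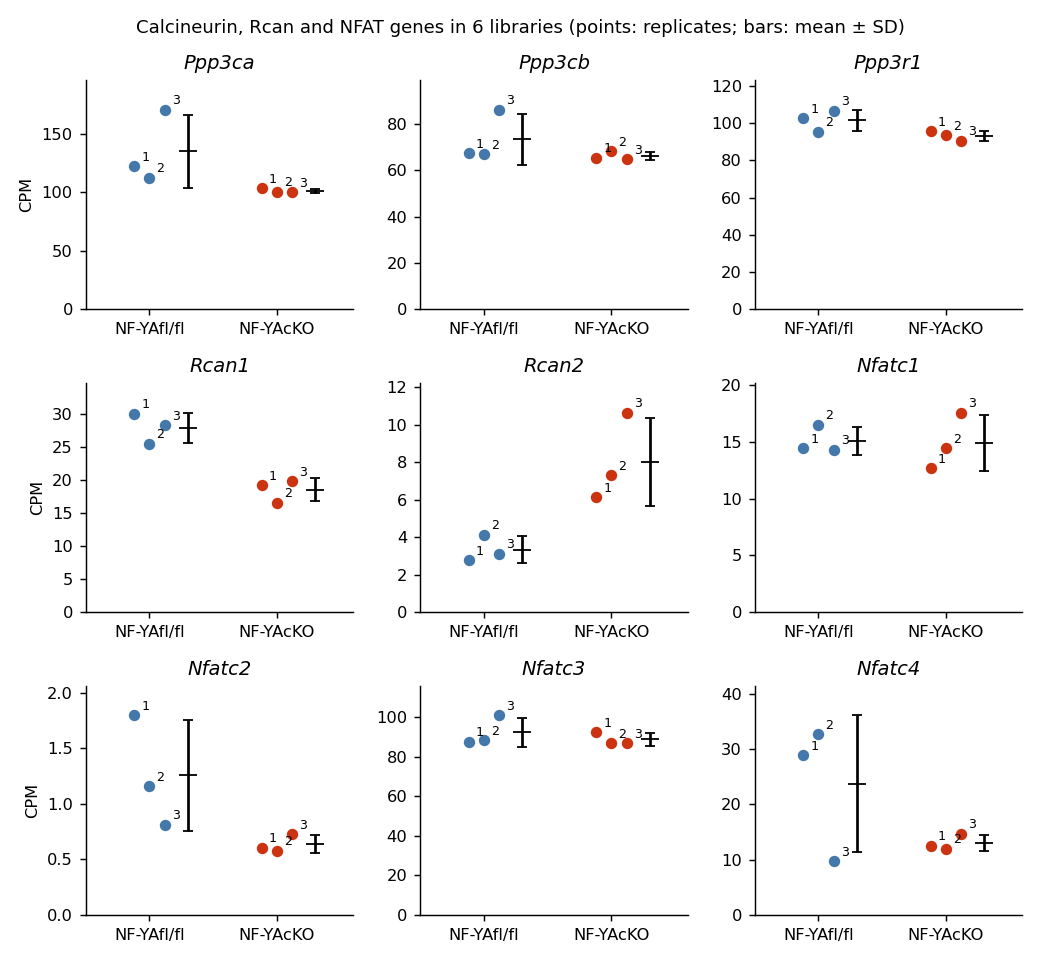
CPM (linear axis from 0) of each of the 9 genes in 3 NF-YAfl/fl (blue) and 3 NF-YAcKO (red) libraries. Points carry the replicate number and bars give mean ± SD (n = 3). Rcan1 and Rcan2 separate the genotypes in opposite directions, and in Nfatc4 NF-YAfl/fl replicate 3, at 9.67 CPM, lies below all NF-YAcKO libraries.

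Per length, in RSEM's TPM (the share of transcripts, scaled for length and depth), the genes had the same order in both genotypes. In NF-YAfl/fl cells the mean levels were 43.2 TPM for Ppp3r1, 33.1 for Ppp3ca, 25.96 for Ppp3cb, 17.9 for Nfatc3, 15.0 for Rcan1, 8.24 for Nfatc4, 3.99 for Nfatc1, 1.25 for Rcan2 and 0.30 for Nfatc2. In NF-YAcKO cells they were 37.3, 23.4, 21.8, 16.2, 9.45, 4.01, 3.63, 2.77 and 0.127 TPM. The calcineurin subunits among these genes thus stood above the NFATc and Rcan genes in both, Nfatc3 was the most abundant NFATc message and Nfatc2 the least. Ppp3cc, outside these genes, stood below Nfatc3 and Rcan1, at 8.21 TPM in NF-YAcKO and 6.12 TPM in NF-YAfl/fl. Neighbours whose ranges overlapped in NF-YAfl/fl were Nfatc3 with Rcan1, Rcan1 with Nfatc4 and Nfatc4 with Nfatc1. In NF-YAcKO they were Ppp3ca with Ppp3cb, Nfatc4 with Nfatc1 and Nfatc1 with Rcan2.

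None of the calcineurin subunit genes was called, and of the 3 described here the genotypes separated in Ppp3ca, with NF-YAcKO lower. Ppp3ca (chr3:136669714-136937727, mm10), the main catalytic subunit by level here, was at 103, 101 and 100 CPM in NF-YAcKO replicates 1 to 3 and at 123, 113 and 171 CPM in NF-YAfl/fl. The NF-YAcKO libraries were all lower, and NF-YAfl/fl replicate 3 stood above the other controls. The log2 fold change was -0.42 (SE 0.16, 95% interval -0.80 to -0.04, edgeR FDR 0.0804), and without NF-YAfl/fl replicate 3 it was -0.22 (edgeR FDR 0.0398). Ppp3cb (chr14:20499364-20546573), the second catalytic subunit, was at 65.4, 68.3 and 64.7 CPM in NF-YAcKO and 67.3, 66.8 and 86.2 CPM in NF-YAfl/fl. These ranges overlapped, with a log2 fold change of -0.15 (SE 0.12, interval -0.44 to 0.14, edgeR FDR 0.356). Ppp3r1 (chr11:17159298-17200380), the regulatory subunit, was at 95.6, 93.6 and 90.5 CPM in NF-YAcKO and at 103, 95.5 and 107 CPM in NF-YAfl/fl, which touched at their edges. Its log2 fold change was -0.12 (SE 0.08, interval -0.32 to 0.08, edgeR FDR 0.281). For Ppp3cb and Ppp3r1 a change as large as the fold threshold lay outside the 95% interval, which covers the spread between these libraries.

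The Rcan genes separated the genotypes in opposite directions. Rcan1 (chr16:92391951-92466169) was at 19.2, 16.6 and 19.8 CPM in NF-YAcKO replicates 1 to 3 and at 30.0, 25.5 and 28.3 CPM in NF-YAfl/fl. Every NF-YAcKO library was lower, and the NF-YAcKO mean was 66.3% of the NF-YAfl/fl mean. The log2 fold change was -0.59 (SE 0.12, interval -0.88 to -0.31, edgeR FDR 0.00937), which passed the FDR but not the fold threshold. Rcan2 (chr17:43801352-44039516) is a second inhibitor gene, known also as a thyroid hormone-responsive transcript. It was at 6.12, 7.29 and 10.6 CPM in NF-YAcKO and at 2.75, 4.13 and 3.12 CPM in NF-YAfl/fl. Every NF-YAcKO library was higher, and NF-YAcKO replicate 3 stood above the other 2. The log2 fold change was 1.26 (SE 0.27, interval 0.62 to 1.91, edgeR FDR 0.0112). It passed the fold but missed the FDR threshold, while DESeq2 called it (log2 fold change 1.24, FDR 0.000178) and so did edgeR with no filter on low counts (1.29, FDR 0.00665). Over all 15 alternatives the FDR of Rcan2 ran from 0.000178 to 0.0580 and that of Rcan1 from 8.61e-05 to 0.0551.

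Of 5 Rcan promoters found, 4 are shown, because NF-Y binds CCAAT and NFATc proteins bind GGAAA. They are those next to the starts of Rcan1 and of Rcan2 NM_207649.1 and NM_030598.2. The sequences are RefSeq promoters of GRCm38.p6 (the mm10 assembly), from 250 bases before to 50 bases after the start, written 5′ to 3′ on the gene's strand. Capitals mark CCAAT or its reverse complement ATTGG and GGAAA or its reverse complement TTTCC. The first lies at chr16:92466120-92466419 on the minus strand, before the upstream exon of Rcan1 (NM_001081549.2). The second lies at chr16:92400029-92400328 on the same strand, 66091 bases downstream, before the exon 4 start (NM_019466.4). The third lies at chr17:43801601-43801900 on the plus strand, before NM_207649.1 of Rcan2. The fourth lies at chr17:43952749-43953048 on the plus strand, around the start of Rcan2 NM_001286654.1. This window ends before the first exon of Rcan2 NM_030598.2.
Rcan1 upstream start: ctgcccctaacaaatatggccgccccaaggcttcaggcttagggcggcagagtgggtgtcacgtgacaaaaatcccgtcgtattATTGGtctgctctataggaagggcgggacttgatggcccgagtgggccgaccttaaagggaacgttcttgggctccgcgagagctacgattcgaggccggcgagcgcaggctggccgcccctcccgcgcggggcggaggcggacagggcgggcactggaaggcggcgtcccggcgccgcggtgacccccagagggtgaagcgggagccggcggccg
Rcan1 exon 4 start: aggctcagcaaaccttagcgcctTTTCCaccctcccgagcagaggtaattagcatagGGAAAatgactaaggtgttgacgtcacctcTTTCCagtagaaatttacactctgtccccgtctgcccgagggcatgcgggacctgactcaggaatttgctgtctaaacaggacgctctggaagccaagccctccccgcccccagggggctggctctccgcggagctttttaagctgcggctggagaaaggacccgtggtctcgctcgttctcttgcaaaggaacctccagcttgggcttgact
Rcan2 NM_207649.1 start: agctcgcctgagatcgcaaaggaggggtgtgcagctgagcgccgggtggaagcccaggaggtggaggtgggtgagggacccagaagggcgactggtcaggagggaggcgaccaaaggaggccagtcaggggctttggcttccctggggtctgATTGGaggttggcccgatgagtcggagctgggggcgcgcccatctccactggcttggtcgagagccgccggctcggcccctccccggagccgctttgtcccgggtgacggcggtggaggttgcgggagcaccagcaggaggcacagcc
Rcan2 downstream start: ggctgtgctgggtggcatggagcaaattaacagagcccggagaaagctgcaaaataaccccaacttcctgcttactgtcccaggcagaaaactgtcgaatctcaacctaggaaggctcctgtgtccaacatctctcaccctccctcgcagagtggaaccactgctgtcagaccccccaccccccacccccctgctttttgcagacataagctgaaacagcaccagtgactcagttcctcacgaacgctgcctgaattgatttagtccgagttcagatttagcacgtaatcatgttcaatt
The upstream Rcan1 promoter held 1 ATTGG, at -166 from the start counted to the first letter of the motif, and no GGAAA. The exon 4 promoter held GGAAA in either orientation at -227, -193 and -163 and no CCAAT. The Rcan2 promoter of NM_207649.1 held 1 ATTGG at -98, and the downstream Rcan2 promoter held neither motif. The Rcan2 promoter not shown, at chr17:43801102-43801401, held 2 TTTCC and no CCAAT. Over all 32851 promoters of this length in the table, 37.4% held CCAAT and 61.3% held GGAAA on either strand. Of 12 promoters found for 7 of the 9 genes, 4 held CCAAT and 7 held GGAAA. A match of letters is a description of the window and does not show a bound site.

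The transcripts from both Rcan1 starts overlapped between the genotypes. RSEM divided Rcan1 between the upstream start and the exon 4 start shown above. The upstream transcript took 40.9%, 56.0% and 43.6% of Rcan1 TPM in NF-YAcKO replicates 1 to 3 and 44.7%, 28.1% and 84.6% in NF-YAfl/fl. The exon 4 transcript took the rest, which in NF-YAfl/fl replicate 3 was 15.4%. The genotypes overlapped, and NF-YAfl/fl replicate 3 stood apart from all 5 other libraries. The share of the exon 4 transcript was 5.65 percentage points higher in NF-YAcKO with that library and 10.4 lower without it (exact permutation test over libraries, p = 0.8 with it). In CPM the log2 fold changes were -0.73 for the upstream transcript (SE 0.41, edgeR FDR 0.357) and -0.38 for the exon 4 transcript (SE 0.56, edgeR FDR 0.785).

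The NF-YAcKO reads of Rcan2 were mostly assigned to NM_030598.2, whose first exon lies at chr17:43953115-43953537. The downstream window shown above ends before this exon, so the bases at its start were not searched for either motif. NM_030598.2 took 55.2%, 52.1% and 83.3% of Rcan2 TPM in NF-YAcKO and 16.5%, 0.00% and 18.7% in NF-YAfl/fl. The shares did not overlap. Its log2 fold change in CPM was 3.97 (SE 1.33, edgeR FDR 0.141), and DESeq2 called it (3.95, FDR 0.00937). It had 0 to 375 counts per library. The transcript that starts at the Rcan2 promoter with ATTGG, NM_207649.1, took 23.7%, 24.7% and 10.03% in NF-YAcKO and 70.7%, 0.00% and 39.9% in NF-YAfl/fl, with overlap. NM_001286653.1 took 15.6%, 13.9% and 1.24% in NF-YAcKO and 12.7%, 64.5% and 41.4% in NF-YAfl/fl, also with overlap.

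**Figure D2:**
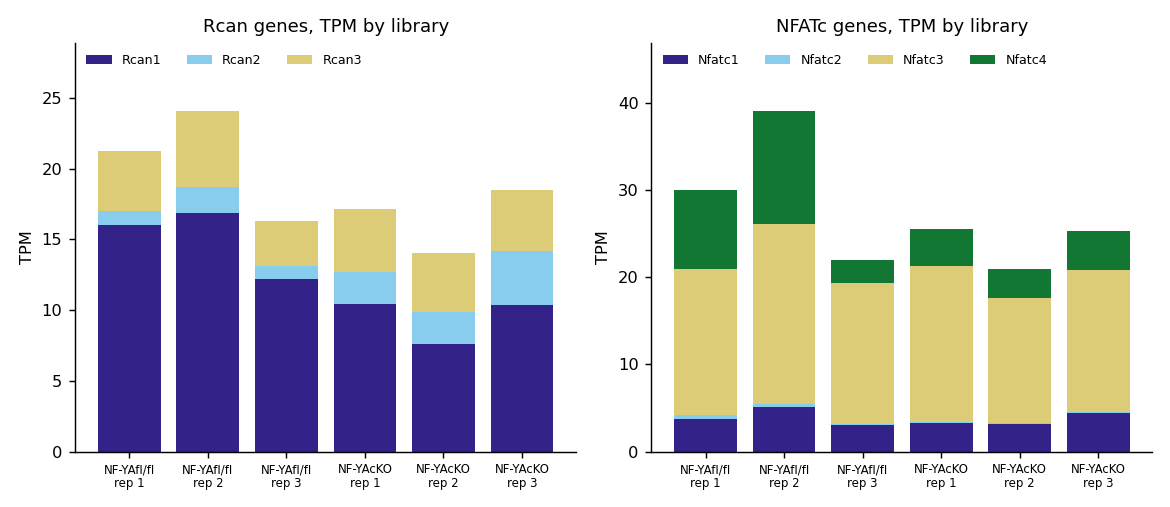
Stacked TPM (linear axis from 0) of the Rcan genes (left) and of the NFATc genes (right) in each library, with no error bar since each bar is 1 library. Rcan2 takes 13.0% to 20.5% of the Rcan total in NF-YAcKO and 4.56% to 7.68% in NF-YAfl/fl, and Nfatc3 is the largest NFATc part in all 6 libraries.

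In TPM, Rcan1 exceeded Rcan2 by 4.68, 3.32 and 2.73 times in NF-YAcKO replicates 1 to 3 and by 16.5, 9.10 and 13.1 times in NF-YAfl/fl. Rcan2 made up 13.0%, 16.3% and 20.5% of the TPM of Rcan1, Rcan2 and Rcan3 in NF-YAcKO and 4.56%, 7.68% and 5.71% in NF-YAfl/fl. The genotypes did not overlap in either measure. The summed TPM of the Rcan genes overlapped, at 17.2, 14.0 and 18.5 in NF-YAcKO and 21.3, 24.1 and 16.3 in NF-YAfl/fl. Rcan1 and Rcan2 together per unit of Ppp3ca and Ppp3cb were 0.269 ± 0.037 in NF-YAcKO and 0.276 ± 0.049 in NF-YAfl/fl (SD, n = 3). The ratio of Ppp3ca to Ppp3cb was 1.10, 1.03 and 1.09 in NF-YAcKO and 1.26, 1.16 and 1.42 in NF-YAfl/fl, without overlap. These were among 7 ratios chosen after the values were seen. With 3 libraries against 3 the exact permutation test cannot go below p = 0.1, which the ratios without overlap reached (adjusted p = 0.175 over the 7).

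Of the NFATc genes, Nfatc1 and Nfatc3 overlapped between the genotypes. Nfatc3 (chr8:106058818-106130537), known for a role in early fibre formation, was at 92.4, 86.9 and 86.8 CPM in NF-YAcKO and at 87.6, 88.4 and 101 CPM in NF-YAfl/fl. Its log2 fold change was -0.06 (SE 0.09, interval -0.28 to 0.16, edgeR FDR 0.655). Its level depended on the unit in NF-YAfl/fl replicate 3, which was the highest control by CPM and, at 16.2 TPM, the lowest by TPM. Nfatc1, on chromosome 18 and known in muscle for slow fibre gene expression, was at 12.7, 14.5 and 17.6 CPM in NF-YAcKO and 14.4, 16.5 and 14.3 CPM in NF-YAfl/fl. Its NF-YAcKO range spanned all 3 controls, with a log2 fold change of -0.02 (SE 0.16, interval -0.39 to 0.35, edgeR FDR 0.940).

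Nfatc2 (chr2:168476410-168601657), known for a part in the recruitment of myoblasts to growing myotubes, was barely detected, with 19 to 47 counts per library. It was at 0.606, 0.579 and 0.729 CPM in NF-YAcKO and at 1.80, 1.16 and 0.814 CPM in NF-YAfl/fl. The NF-YAcKO libraries were all lower, but in TPM NF-YAfl/fl replicate 3 and NF-YAcKO replicate 1 were both at 0.130. Its log2 fold change was -0.97 (SE 0.35, interval -1.79 to -0.14, edgeR FDR 0.0663). At this depth RSEM's split over Nfatc2 transcripts left every transcript described at 0 in at least 2 of the 6 libraries.

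The comparison of Nfatc4 turned on 1 library. Nfatc4 (chr14:55824795-55833943), which with Nfatc3 is known for vascular patterning, was at 12.5, 11.9 and 14.7 CPM in NF-YAcKO and at 28.9, 32.7 and 9.67 CPM in NF-YAfl/fl. NF-YAfl/fl replicate 3 lay below all NF-YAcKO libraries, whereas the other controls lay above them. The log2 fold change was -0.86 (SE 0.41, interval -1.84 to 0.11, edgeR FDR 0.140), and without NF-YAfl/fl replicate 3 it was -1.24 (edgeR FDR 0.000523), which would be called. That library was also the lowest control for the stromal markers Pdgfra (21.6 CPM against 132 and 147), Pdgfrb (56.5 against 276 and 304), Ly6a, which encodes Sca1 (2.85 against 18.5 and 26.9), and Rgs5 (2.78 against 12.7 and 44.0). In NF-YAcKO, Pdgfra was at 77.7 to 104 CPM and Pdgfrb at 92.8 to 134 CPM, above that library, while Ly6a was at 3.13 to 5.10 CPM, just above it, and Rgs5 at 1.88 to 2.01 CPM, below it. Other markers of these lists differed. NF-YAfl/fl replicate 3 was not the lowest control for Acta2 (1718 CPM against 1740 and 1389) or Abcc9 (71.2 against 78.9 and 57.7). Dcn (68.3 to 76.3 CPM in NF-YAcKO against 9.26 to 28.8) and Lum (13.4 to 21.2 against 0.679 to 3.98) were higher in every NF-YAcKO library than in any control. The part of stromal cells in the Nfatc4 values was not tested.

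The Nfatc4 promoter (chr14:55824545-55824844, plus strand, GRCm38.p6) is shown because it held more CCAAT boxes than the other promoters searched. The search did not include Nfatc1 or Ppp3ca. Marks are the same as above.
Nfatc4 NM_023699.3 start: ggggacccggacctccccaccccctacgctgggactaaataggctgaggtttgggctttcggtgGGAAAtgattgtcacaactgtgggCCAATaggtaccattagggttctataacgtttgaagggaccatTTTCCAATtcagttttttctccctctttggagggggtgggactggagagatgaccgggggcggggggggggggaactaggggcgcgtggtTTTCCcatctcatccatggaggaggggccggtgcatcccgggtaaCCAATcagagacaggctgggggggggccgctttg
It held CCAAT at -162, -116 and 16 and GGAAA or TTTCC at -186, -119 and -29. The motifs at -119 and -116 share letters. The shares of the Nfatc4 transcripts overlapped, with NM_023699.3 at 61.6%, 45.9% and 40.0% of Nfatc4 TPM in NF-YAcKO and 41.4%, 54.5% and 58.2% in NF-YAfl/fl.

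**Figure D3:**
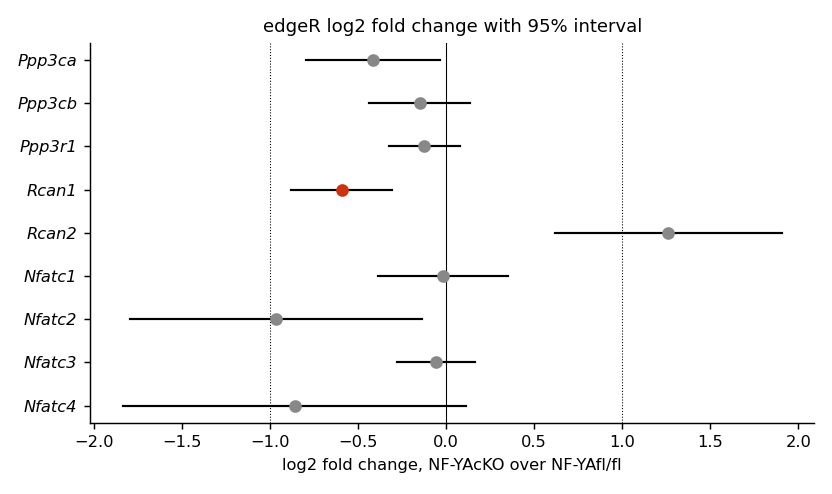
Log2 fold change (NF-YAcKO over NF-YAfl/fl, edgeR, 3 libraries each) of the 9 genes with 95% intervals; dotted lines mark the fold threshold of 1 and red marks an FDR under 0.01. Rcan1, at -0.59, is the red point, and Rcan2, at 1.26, is the only point past a dotted line.

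The call within the 9 genes was for a transcript of a catalytic subunit. Of 25 transcripts that made up at least 10% of a gene's TPM on average in either genotype, 21 could be tested, and 1 was called, as lower, against 1.4% of the 45367 transcripts tested and 1.01% as lower. Shares did not overlap between the genotypes for 7 of the 21, compared with 21.1% of tested transcripts in all genes with several transcripts. The 21.1% includes transcripts under 10% of a gene's TPM, and shares within a gene depend on each other, so these are not like for like. The exact permutation test cannot go below p = 0.1, and the 7 had an adjusted p of 0.357.

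Of 4 Ppp3ca transcripts quantified, 2 are described, NM_001293622.1 (4816 nt) and the shorter predicted transcript XM_017319492.1 (4281 nt). In NF-YAfl/fl replicate 3 they took 70.3% and 14.9% of Ppp3ca TPM, so part of it went to transcripts not described. The shorter transcript took 5.07%, 5.47% and 2.93% of Ppp3ca TPM in NF-YAcKO replicates 1 to 3 and 26.6%, 23.9% and 14.9% in NF-YAfl/fl. In CPM it was at 4.69, 4.98 and 2.65 in NF-YAcKO and at 29.8, 24.5 and 22.3 in NF-YAfl/fl. It was lower in every NF-YAcKO library, with a log2 fold change of -2.64 (SE 0.30, interval -3.37 to -1.91, edgeR FDR 0.00906), and DESeq2 called it too (-2.66, FDR 4.05e-14). The longer transcript was at 98.5, 96.2 and 98.2 CPM in NF-YAcKO and 91.7, 86.8 and 119 CPM in NF-YAfl/fl, with a log2 fold change of -0.02 (SE 0.14, edgeR FDR 0.958). The call for the shorter transcript did not hold without any 1 of the 6 libraries (edgeR FDR 0.0171 to 0.0421, log2 fold change -2.80 to -2.40).

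Ppp3cb showed a like pattern. Its shortest transcript described, the predicted XM_017315921.1 (2724 nt), took 1.61%, 3.26% and 3.22% of Ppp3cb TPM in NF-YAcKO and 18.2%, 14.2% and 10.6% in NF-YAfl/fl. In CPM it was at 0.835, 1.79 and 1.67 in NF-YAcKO and 9.99, 7.78 and 6.97 in NF-YAfl/fl, again without overlap. The log2 fold change was -2.52 (SE 0.39, interval -3.48 to -1.56, edgeR FDR 0.0194), past the fold but not the FDR threshold, and DESeq2 called it (-2.54, FDR 1.91e-08). XM_006518711.1 (3128 nt) took 61.9%, 57.8% and 55.4% in NF-YAcKO and 47.6%, 54.3% and 39.8% in NF-YAfl/fl, without overlap, and NM_008914.3 (3831 nt) overlapped. These values are RSEM's estimated split of reads among transcripts that share most of their sequence.

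Nfatc1 NM_016791.4 (4505 nt) took 50.9%, 40.8% and 56.4% of Nfatc1 TPM in NF-YAcKO and 24.4%, 30.5% and 30.5% in NF-YAfl/fl. The shares did not overlap, and in CPM the log2 fold change was 0.81 (SE 0.30, edgeR FDR 0.175). NM_001164112.1 had the opposite pattern, at 0.00%, 13.1% and 12.7% in NF-YAcKO and 21.4%, 20.9% and 19.0% in NF-YAfl/fl (edgeR FDR 0.732 in CPM). Both Nfatc3 transcripts overlapped in share. NM_010901.2 took 75.9% to 83.5% of Nfatc3 TPM in NF-YAcKO and 74.7% to 83.6% in NF-YAfl/fl.

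**Figure D4:**
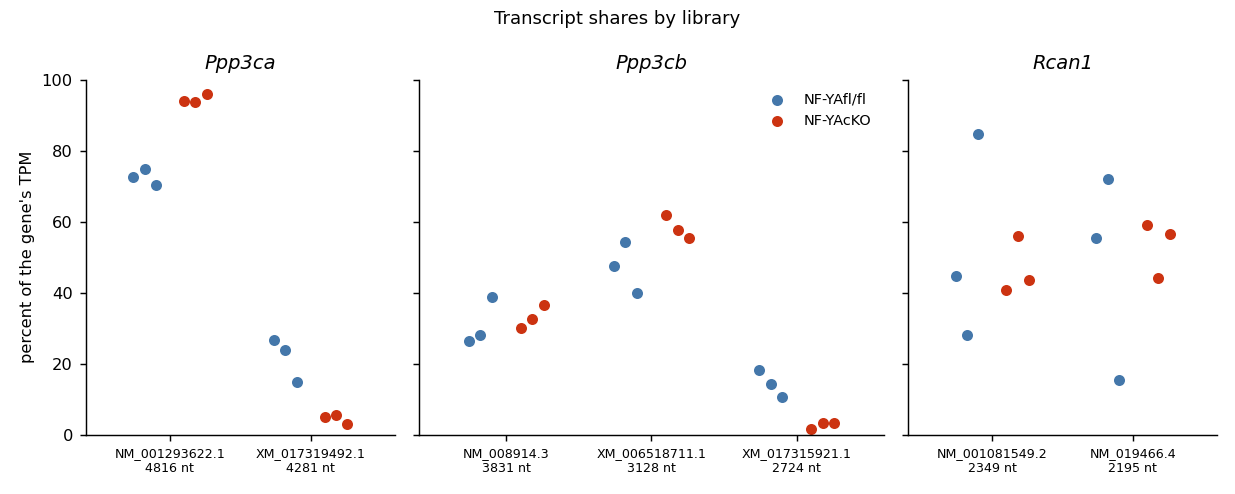
Percent of the gene's TPM (0 to 100, linear) taken by the described transcripts of Ppp3ca, Ppp3cb and Rcan1; each point is 1 of 3 libraries per genotype. XM_017319492.1 of Ppp3ca is at 14.9% to 26.6% in NF-YAfl/fl and 2.93% to 5.47% in NF-YAcKO, whereas the Rcan1 transcripts overlap and NF-YAfl/fl replicate 3, at 84.6% and 15.4%, stands apart.

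Around this core, 59 other genes of the pathway were grouped by role, and 51 were tested. Of these, 2 rose and 11 fell in NF-YAcKO by the call rule (4.65% and 7.67% of all genes), and 38 were not called, with a median log2 fold change of -0.11. With no fold threshold, 4 had an FDR under 0.01 as higher and 14 as lower. Over all 17348 genes tested, 1787 were higher and 1729 lower by this rule (20.3% together). The third catalytic subunit, Ppp3cc, was at 13.1 to 14.8 CPM in NF-YAcKO and 9.64 to 10.6 CPM in NF-YAfl/fl (log2 fold change 0.48, SE 0.12, edgeR FDR 0.0213). Nfat5, the family member that does not depend on calcineurin and responds to osmotic stress, was at 135, 126 and 130 CPM in NF-YAcKO and 242, 277 and 216 CPM in NF-YAfl/fl. These did not overlap, and the log2 fold change of -0.91 (SE 0.11, edgeR FDR 0.00157) passed the FDR but not the fold threshold. Rcan3 was at 19.5 to 21.1 CPM in NF-YAcKO and 16.7 to 19.4 CPM in NF-YAfl/fl (0.13, SE 0.11, edgeR FDR 0.391).

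Upstream of calcineurin, the genes of store-operated calcium entry moved in different directions. Of 10 calcium channels and sensors tested, 1 rose and 2 fell by edgeR (4.65% and 7.67% of all genes). DESeq2 called 5 of them (16.1% of all genes). Stim1, the calcium sensor of the endoplasmic reticulum, fell by 1.24 on the log2 scale (SE 0.14, edgeR FDR 0.00107), and Orai1, the channel it opens, had a log2 fold change of -2.004 (SE 0.27, edgeR FDR 0.00208). Orai2, a related channel subunit, rose by 1.37 (SE 0.16, edgeR FDR 0.00147). In CPM Orai1 was at 9.92, 7.67 and 8.46 in NF-YAcKO and 33.3, 23.3 and 47.8 in NF-YAfl/fl, and Orai2 at 101, 120 and 109 against 33.0, 45.0 and 49.8, neither with overlap. None of the 3 calmodulin genes was called by edgeR, with log2 fold changes of 0.17 to 0.68, or by DESeq2. An unadjusted p under 0.05 in edgeR was found for 2 of them, compared with 48.7% of all genes.

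Among proteins that bind or anchor calcineurin, 1 of 10 tested rose and 3 fell, compared with 4.65% and 7.67% of all genes. Akap5, which anchors calcineurin and protein kinase A at membranes, rose by 1.34 (SE 0.27, edgeR FDR 0.00930). Akap6, the anchor of the muscle nuclear envelope, fell by 3.83 (SE 0.31, edgeR FDR 0.000376). Myoz1 and Myoz2, the calsarcins that hold calcineurin at the Z-disc, fell, with log2 fold changes of -2.76 (SE 0.45, edgeR FDR 0.00401) and -6.68 (SE 0.47, edgeR FDR 0.000239). Of 8 kinases that act on NFATc proteins, 2 fell (7.67% of all genes). They were Dyrk1b, with a log2 fold change of -1.95 (SE 0.20, edgeR FDR 0.000803), and Dyrk2, with -1.44 (SE 0.16, edgeR FDR 0.00115). Of 4 genes for NFAT scaffolds and export and 6 for other calcineurin substrates, none was called by edgeR or DESeq2. In each group 2 had an unadjusted p under 0.05 in edgeR, compared with 48.7% of all genes.

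Of 7 tested genes known as targets of calcineurin and NFAT, 4 fell and 0 rose, compared with 7.67% and 4.65% of all genes. The 4 encode fibre proteins: myoglobin (Mb, log2 fold change -7.59, SE 0.60, edgeR FDR 0.000347), slow troponin I (Tnni1, log2 fold change -5.90, SE 0.29, edgeR FDR 6.16e-05), slow myosin (Myh7, log2 fold change -8.54, SE 0.58, edgeR FDR 0.000206) and myosin IIa (Myh2, log2 fold change -3.59, SE 0.38, edgeR FDR 0.000933). The differentiated muscle markers fell with them, 18 of 18, as given above, and their part in these values was not tested. Utrn was at 221 to 248 CPM in NF-YAcKO and 447 to 489 CPM in NF-YAfl/fl, just inside the fold threshold (-0.99, SE 0.09, edgeR FDR 0.000657). DESeq2 called 6 of the 7 targets (16.1% of all genes), adding Utrn as lower and Tnf as higher. Ptgs2, called by neither, was at 329 to 491 CPM in NF-YAcKO and 80.1 to 428 CPM in NF-YAfl/fl. These ranges overlapped, with a log2 fold change of 0.38 (SE 0.55, edgeR FDR 0.618). Tnf, at 0.353 to 1.12 CPM in NF-YAcKO and at most 0.119 CPM in NF-YAfl/fl, had a log2 fold change of 3.04 (SE 0.77, edgeR FDR 0.0208). Il4, Il2 and Il13, targets in T cells and, for Il4, in myotubes, had 0 counts in all 6 libraries, which allows up to 0.111 CPM in the shallowest library by counting error.

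**Figure D5:**
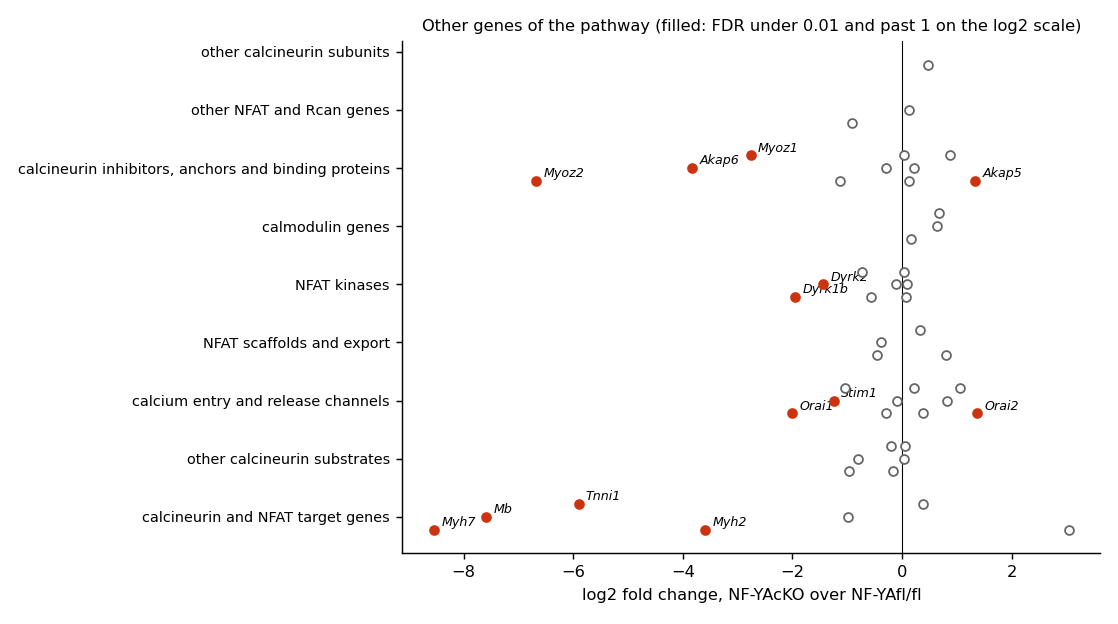
Log2 fold change (NF-YAcKO over NF-YAfl/fl, edgeR) of the 51 tested genes around the pathway core, grouped by role; each point is a gene and filled, named points were called. The 13 called genes are spread over 4 of the 9 groups, and Akap5 and Orai2 are the 2 called higher.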

How the data were processed

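RNA-seq (75 nt reads, stranded total RNA) of cultured satellite cells (3 NF-YAcKO and 3 NF-YAfl/fl libraries) was analysed from the tables the authors deposited. The authors aligned reads with Bowtie2 to the mouse transcriptome (mm10) and quantified them with RSEM. The Bowtie2 version is not given in the sources used here. The expected counts in the deposited tables carry no normalization, and a read that matches several transcripts is divided among them. The deposited TPM are scaled for length and depth, and the deposited percent values give each transcript's part of its gene's TPM.

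Expected counts were rounded to whole numbers. Features counted above 10 in 2 or more libraries entered edgeR 4.0.16 (TMM, quasi-likelihood, R 4.3.3), with genotype as the only term and Benjamini-Hochberg adjustment over the whole table. A call needed FDR below 0.01 with the log2 fold change past 1 in size. DESeq2 1.42.0, limma 3.58.1 on log2(TPM + 1) and log2(TPM + 0.1), other normalizations, filters and thresholds, a replicate block and leaving out each library were the alternatives. Shares and ratios were compared by two-sided exact permutation tests. Only the edgeR test of genes was checked on simulated counts.

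The 9 genes were all described. Transcripts were named at 10% or more of a gene's TPM, and pathway list genes when called. Other list genes and markers named were chosen after their values were seen, except Calcr, named as a defining marker near 0. The genes and lists were chosen with earlier results of these data known. Replicate numbers come from the labels. No 2 libraries agreed within sampling noise. Promoters came from the RefSeq table of GRCm38.p6 and first exons from GENCODE vM21. Intervals and floors cover library spread or counting error only.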

Additional observations from a re-analysis of the deposited data

How the results depend on the processing

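Over 15 alternatives, Rcan1 kept its direction (-0.67 to -0.54) and so did Rcan2 (0.74 to 1.44), Ppp3ca (-0.54 to -0.22), Nfatc2 (-1.20 to -0.20) and Nfatc4 (-1.24 to -0.57). The number of the 9 genes called higher became 1 (Rcan2) with DESeq2, with no filter on low counts or at an FDR under 0.05, and the number called lower became 1 with no fold threshold (Rcan1). Leaving out each library gave 0 called higher and 0 to 1 called lower, the 1 being Nfatc4 without NF-YAfl/fl replicate 3. Over all genes, calls as higher were 806 and became 231 and 361 with limma on log2(TPM + 1) and log2(TPM + 0.1) and 1787 with no fold threshold. Calls as lower were 1331 and became 704 with limma on log2(TPM + 1) and 2025 at an FDR under 0.05. Leaving out each library gave 177 to 890 higher and 523 to 1684 lower.

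Log2 fold changes turned direction for the values in this paragraph and for NM_010899.3 with the replicate block, none of which was called. The share differences of the Rcan1 and Nfatc4 transcripts, among others, also turned direction on leaving out a library. With no filter on low counts Nfatc1 was at 0.0105 and NM_001293622.1 at 0.00899. Leaving out each library, log2 fold changes ran from -0.18 to 0.0577 for Nfatc1, -0.11 to 0.00660 for Nfatc3, -0.12 to 0.13 for NM_001293622.1, -0.22 to 0.23 for NM_008914.3, -0.12 to 1.26 for NM_207649.1, -2.81 to 0.10 for NM_198429.2, -0.28 to 0.90 for NM_010899.3 and -0.13 to 0.0436 for NM_010901.2. The cause was not tested.

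Libraries of the same replicate number had correlations of deviations of 0.165, -0.0693 and 0.0527 for replicates 1 to 3. Only for replicate 1 was each library the best match of the other. With 3 libraries per genotype this cannot decide whether the numbers pair the libraries. With the replicate block 625 genes were called higher and 947 lower and 0 of the 9, the shorter Ppp3ca transcript kept its direction at -2.68 but lost its call (edgeR FDR 0.0722), and NM_010899.3 was at -0.0499. Counts limit Nfatc2 (19 to 47) and the split of Rcan2 among transcripts.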
